A study of Zea mays with 24 samples.

Results

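*ASR3* (Zm00001d003712, abscisic acid stress ripening3) and *ASR8* (Zm00001d040785, abscisic acid stress ripening8) were taken from the leaf expression table by their gene identifiers. They are 2 of 46430 genes in the table and 2 of 9 whose name or description places them in the abscisic acid stress ripening (ASR) family. Both genes were chosen with results of these libraries known. *ASR3* was selected on its FPKM values, among them its ABA response in droughted Y7-1 plants, and the values that led to *ASR8* are not given. Their levels are therefore a description, and an adjusted p printed below only places a gene among all tested genes. *ASR3* was measured in all 24 libraries, whereas *ASR8* had reads in 7 libraries, all of Y7-1.

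ASR proteins are small, very hydrophilic plant proteins named after abscisic acid (ABA), stress and fruit ripening, the settings in which their transcripts were first described. In water they have little fixed structure, and they fold when zinc is bound or water is lost. They are known as protectants of other proteins in drying cells and, from tomato and grape, as DNA-binding proteins. In cereal leaves, transcripts of ASR genes are known to accumulate under water deficit and after ABA treatment. ABA itself is the hormone that closes stomata and switches on protective genes when water is short.

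RNA was measured in the second fully expanded leaf from the top of 24 maize plants, 3 individual plants in each of 8 groups. Y7-1 is 1 transgenic line that carries an inserted construct, with *ZmPMP3g* behind a cauliflower mosaic virus promoter and a Basta resistance marker. Y478 is the inbred line Ye478, from which Y7-1 was made, and it carries no construct. Each line was grown under moderate drought-exogenous ABA, moderate drought, control-exogenous ABA and control. Moderate drought was a pot mix moisture of up to 50% and control was 70%. Exogenous ABA was a foliar spray at 15 mg/L, plants of the control treatment were sprayed with tap water, and leaves were taken after 9 d of treatment. Below, "sprayed" and "the spray" refer to ABA only. Because only 1 transgenic line was sequenced, an effect of the overexpressed gene and any other difference between Y7-1 and Y478 cannot be told apart.

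The deposited values are FPKM (fragments per kilobase of gene, scaled by library size), from which whole reads could be recovered, 15762667 to 18428177 per library. The tested set held 23978 genes with at least 0.5 FPKM in at least 3 libraries. "Passed" below means an adjusted p under 0.05 in limma over these genes. The library labelled Y7-1 moderate drought replicate 3 went against its label. It read 0 of 125 genes that were otherwise seen only in Y7-1 and 68 of 74 seen only in Y478, while the other Y7-1 moderate drought libraries read 107 and 109 of the 125, and 0 and 4 of the 74. Values of *ASR3* and *ASR8* that rest on it are given with and without it. The *ZmPMP3g* homolog Zm00001d024778, a check of the overexpression, did not pass as different between the lines in any of the 4 treatments with all libraries (limma, adjusted p 0.241 to 0.996). It averaged 1290 ± 298 FPKM in Y7-1 and 2064 ± 772 FPKM in Y478 under moderate drought-exogenous ABA, and 299 ± 61.2 FPKM in Y7-1 and 308 ± 119 FPKM in Y478 under control (SD, n = 3 each). Under moderate drought it had 572, 684 and 3435 FPKM in Y7-1, the last in the library that went against its label, and 3233, 2212 and 2724 FPKM in Y478. Without that library it passed under moderate drought as lower in Y7-1 than in Y478 (log2 fold change -2.10 ± 0.51 SE, adjusted p = 0.0107). Whether reads of the construct were counted to this gene is not given in the sources used here, so these values cannot decide on the overexpression. The paper's own leaf measurement by quantitative PCR put *ZmPMP3g* significantly above the wild type in its transgenic lines, among them Y7-1. Leaf markers were high, with carbonic anhydrase1 of the mesophyll at 1033 ± 128 FPKM in Y7-1 and 1293 ± 592 FPKM in Y478 under moderate drought-exogenous ABA.

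*ASR3* was one of the most abundant leaf transcripts, and it was highest in droughted Y7-1 plants sprayed with ABA. The gene lies on chromosome 2 from 55894819 to 55896267 on the plus strand, with a gene length of 1302 bases as given in the table. Under moderate drought-exogenous ABA, the 3 Y7-1 plants had 2194, 2503 and 2412 FPKM. This level put *ASR3* in place 25 of all 46430 genes, with 0.330% to 0.373% of all reads of each library.

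The other Y7-1 groups were well below it. Under moderate drought, Y7-1 had 1011, 770.4 and 703 FPKM, the last in the library that went against its label. Under control-exogenous ABA, Y7-1 had 232, 325 and 256 FPKM. Under control, Y7-1 had 1051, 906 and 428 FPKM. Within Y7-1, sprayed plants thus held both the highest and the lowest *ASR3* levels, depending on water.

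In Y478 the droughted groups had the higher means, with and without the spray. Under moderate drought-exogenous ABA, Y478 had 989.6, 798 and 346 FPKM. Under moderate drought, Y478 had 756, 875 and 694 FPKM. Under control-exogenous ABA, Y478 had 177, 207 and 374 FPKM, and under control it had 443, 186 and 162 FPKM. The lowest plant of Y478 under moderate drought-exogenous ABA lay within the range of its watered plants, so that this group was the more scattered of the droughted Y478 groups.

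**Figure D1:**
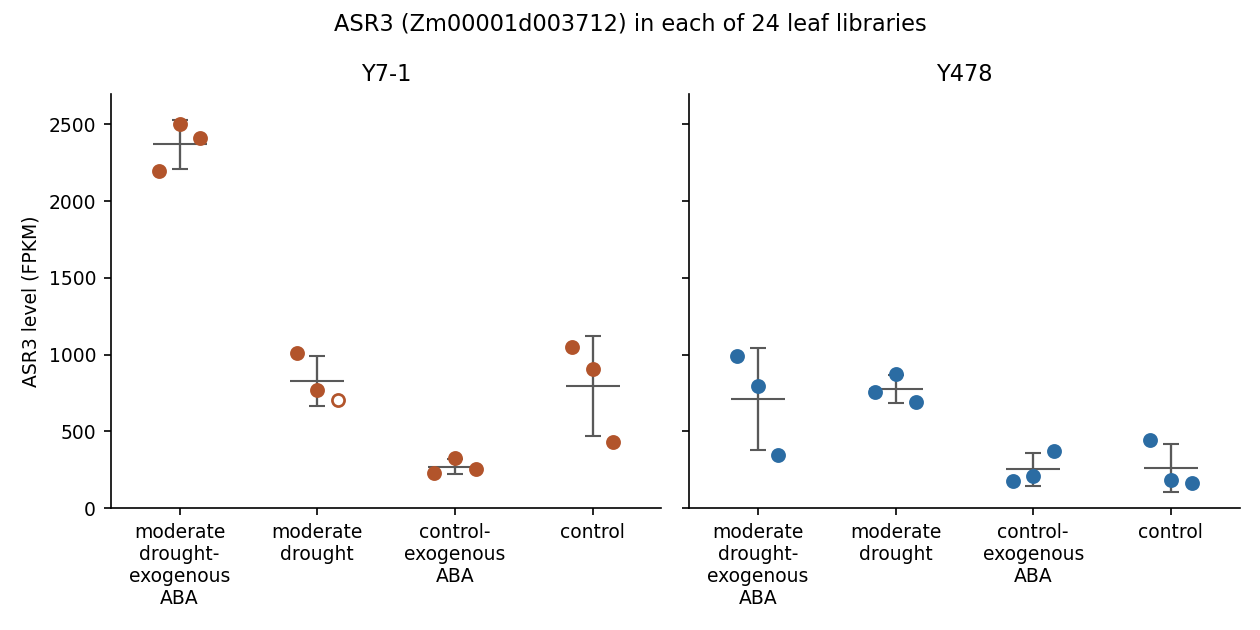
ASR3 level (FPKM, linear axis from 0) in each of 24 leaf libraries, by line and treatment. Points are single plants, horizontal bars with whiskers are means ± SD (n = 3), and the open point is replicate 3 of Y7-1 moderate drought, whose library went against its label. The 3 Y7-1 plants under moderate drought-exogenous ABA sit between 2194 and 2503 FPKM, above all other plants.

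Ordered by mean, *ASR3* fell into 3 tiers, though single plants of the middle and lowest tiers overlapped. Y7-1 under moderate drought-exogenous ABA stood alone at 2369 ± 159 FPKM (SD, n = 3). Next came Y7-1 under moderate drought at 828 ± 162, Y7-1 under control at 795 ± 326, Y478 under moderate drought at 775 ± 92.1 and Y478 under moderate drought-exogenous ABA at 711 ± 330 FPKM, each of which overlapped its neighbour in this order. Lowest were Y7-1 under control-exogenous ABA at 271 ± 48.5, Y478 under control at 263 ± 156 and Y478 under control-exogenous ABA at 253 ± 106 FPKM, which also overlapped. The lowest Y478 plant under moderate drought-exogenous ABA, at 346 FPKM, lay below the highest under control-exogenous ABA, at 374 FPKM. It also lay below the highest Y478 plant under control, at 443 FPKM. By mean, well watered Y7-1 plants without ABA were thus in the middle tier, with droughted Y478 plants. Without the library that went against its label, the Y7-1 moderate drought mean was 891 FPKM and the order was the same.

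The first question of the design was how drought moved the 2 genes within each line and spray. In sprayed Y7-1 plants, *ASR3* was 8.74 times as high under moderate drought-exogenous ABA as under control-exogenous ABA, with no overlap of plants. The log2 fold change was 3.14 ± 0.42 (SE), place 108 of the 23978 tested genes by fold change. *ASR3* passed in this comparison, in which 11.8% of all tested genes passed. Its values in droughted, sprayed Y7-1 plants were known when the gene was chosen, so this call is no independent support. Fewer leaf cells of a type and less RNA per cell cannot be told apart in such whole-leaf samples. The bundle sheath marker list, 8 tested genes of 12, also differed here, with a mean log2 level of 6.07 to 6.37 under moderate drought-exogenous ABA and of 6.85 to 7.22 under control-exogenous ABA in Y7-1. Its part in the result was not tested.

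In Y478, *ASR3* was higher under drought with and without the spray. It averaged 775 ± 92.1 FPKM under moderate drought and 263 ± 156 FPKM under control, with no overlap of plants, a log2 fold change of 1.70 ± 0.42 (SE, adjusted p = 0.0240). It averaged 711 ± 330 FPKM under moderate drought-exogenous ABA and 253 ± 106 FPKM under control-exogenous ABA, where the plants overlapped, a log2 fold change of 1.44 ± 0.42 (SE, adjusted p = 0.0362). *ASR3* passed in both, where 5.98% and 9.66% of all tested genes passed without and with the spray. Both calls were lost when only the compared groups were fitted (adjusted p = 0.0782 without the spray and 0.162 with it). They were also lost when single plants were left out. Without the spray, the plants were control replicate 2 or 3 or moderate drought replicate 1 or 2 (adjusted p 0.0785 to 0.113). With the spray, these were control-exogenous ABA replicate 1 or 2 or moderate drought-exogenous ABA replicate 1 or 2 (adjusted p 0.103 to 0.162). Marker lists moved with these comparisons too, as mean log2 levels. Without the spray, the bundle sheath list was at 7.03 to 7.22 under moderate drought and 7.40 to 7.65 under control in Y478. The mesophyll list, 29 tested genes of 36, was at 4.78 to 4.90 under moderate drought and 5.04 to 5.35 under control, and the epidermis and wax list, 23 of 40, at 2.01 to 2.24 and 2.26 to 2.55 in that order. The phloem list, 15 of 29, was at 2.45 to 2.94 under moderate drought and 2.26 to 2.37 under control, and at 2.73 to 3.00 under moderate drought-exogenous ABA and 2.36 to 2.71 under control-exogenous ABA. The part of these lists in the result was not tested.

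In Y7-1 plants without ABA, *ASR3* lay in the same range under moderate drought and under control. The log2 fold change of moderate drought over control was 0.14 ± 0.42 (SE, adjusted p = 0.902), with a 95% interval of -0.74 to 1.02. Without the library that went against its label it was 0.25 (adjusted p = 0.896). The interval leaves room for a change of up to 1.02. Marker lists differed here too, with all libraries kept. The mesophyll list was at a mean log2 level of 4.55 to 4.67 under moderate drought and 4.83 to 4.99 under control. The epidermis and wax list was at 1.74 to 2.50 and 2.70 to 3.02 in that order, and the part of these lists was not tested. In this comparison 0.713% of all tested genes, 171 in number, passed, and 20 genes passed without that library.

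The second question was how exogenous ABA moved them at each water level. In Y7-1 the spray went with opposite shifts of *ASR3* at the 2 water levels. In well watered Y7-1 plants, *ASR3* was at 271 ± 48.5 FPKM under control-exogenous ABA and at 795 ± 326 FPKM under control (SD, n = 3 each). These plants did not overlap, but the log2 fold change of -1.47 ± 0.42 did not pass (SE, adjusted p = 0.164), in a comparison where 0.0375% of all tested genes passed. The bundle sheath list was at a mean log2 level of 6.846 to 7.22 under control-exogenous ABA and 6.41 to 6.844 under control. Its part in the result was not tested. In droughted Y7-1 plants, *ASR3* was at 2369 ± 159 FPKM under moderate drought-exogenous ABA and at 828 ± 162 FPKM under moderate drought. This ratio of 2.86, or 2.66 without the library that went against its label, was among the values known when the gene was chosen and is given with no test. The log2 fold change was 1.53 ± 0.42 (SE). In this comparison 0.163% of all tested genes passed, 39 in number, or 19 without that library, and *ASR3* was not among them. The paper, from its own processing, lists *ASR3* as differentially expressed with ABA in Y7-1 at both water levels, in these directions.

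In Y478, *ASR3* was at like levels with and without ABA. The log2 fold change was 0.02 ± 0.42 for control-exogenous ABA over control (SE, 95% interval -0.86 to 0.89, adjusted p = 1). For moderate drought-exogenous ABA over moderate drought it was -0.25 ± 0.42 (SE, 95% interval -1.13 to 0.63, adjusted p = 0.935). In each of these comparisons 0.00417% of all tested genes passed. The intervals leave room for changes of close to 1 on the log2 scale in either direction. In Y478 the bundle sheath list was at a mean log2 level of 7.27 to 7.51 under moderate drought-exogenous ABA and 7.03 to 7.22 under moderate drought. Its part was not tested.

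**Figure D2:**
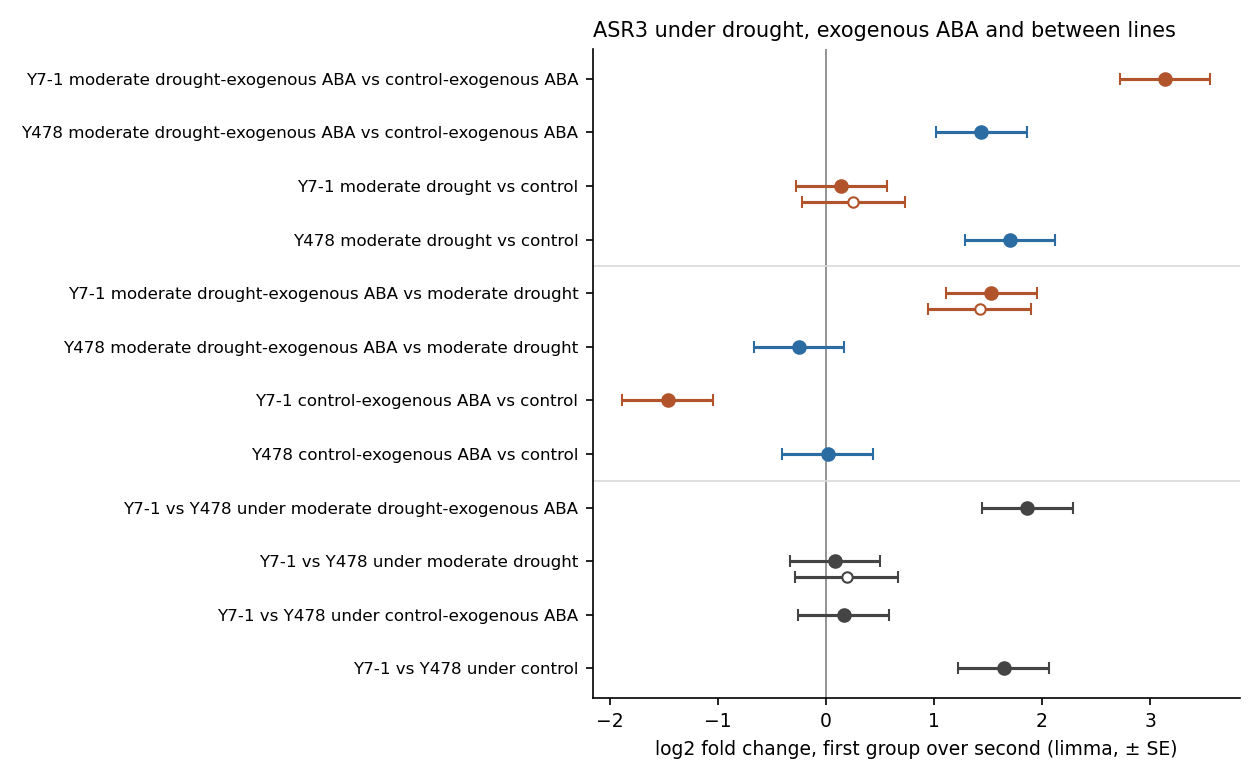
Log2 fold changes of ASR3 (limma, ± SE) for 12 comparisons, first group over second, with drought at the top, ABA in the middle and the lines at the bottom. Orange marks Y7-1, blue Y478 and grey the lines against each other, and open points leave out replicate 3 of Y7-1 moderate drought. The highest value is 3.14, for Y7-1 moderate drought-exogenous ABA over control-exogenous ABA, and the lowest is -1.47, for Y7-1 control-exogenous ABA over control.

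The third question was how Y7-1 differed from Y478 within each treatment. *ASR3* was higher in Y7-1 under control and under moderate drought-exogenous ABA, and the means of the lines were closer in the other treatments. Under moderate drought-exogenous ABA it was at 2369 ± 159 FPKM in Y7-1 and 711 ± 330 FPKM in Y478, with no overlap, a log2 fold change of 1.86 ± 0.42 (SE). *ASR3* passed here, as did 28.1% of all tested genes, so a call was common. This call too holds Y7-1 values known when the gene was chosen and is no independent support. The bundle sheath list differed here too, at 6.07 to 6.37 in Y7-1 and 7.27 to 7.51 in Y478 on its mean log2 level, and its part in the result was not tested. Under control it was at 795 ± 326 FPKM in Y7-1 and 263 ± 156 FPKM in Y478, a log2 fold change of 1.64 ± 0.42 (SE, adjusted p = 0.0156), where 12.2% of all tested genes passed. The lowest Y7-1 plant, at 428 FPKM, lay below the highest Y478 plant, at 443 FPKM. The paper's own processing also lists *ASR3* as higher in Y7-1 under control. Under control 4 marker lists did not overlap between the lines in their mean log2 level, and their part in the result was not tested. The bundle sheath list was at 6.41 to 6.84 in Y7-1 and 7.40 to 7.65 in Y478, and the mesophyll list at 4.83 to 4.99 in Y7-1 and 5.04 to 5.35 in Y478. The phloem list was at 2.57 to 2.99 in Y7-1 and 2.26 to 2.37 in Y478, and the epidermis and wax list at 2.70 to 3.02 in Y7-1 and 2.26 to 2.55 in Y478.

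The call under control was lost when Y7-1 control replicate 1 or 2 or Y478 control replicate 2 or 3 was left out (adjusted p 0.0542 to 0.0801). It was also lost with only these groups in the fit (adjusted p = 0.0812). Under control-exogenous ABA the log2 fold change of Y7-1 over Y478 was 0.16 ± 0.42 (SE, 95% interval -0.71 to 1.04, adjusted p = 0.813), where 22% of all tested genes passed. Under moderate drought it was 0.08 ± 0.42 (SE, 95% interval -0.79 to 0.96, adjusted p = 0.940), and 0.19 without the library that went against its label, where 1.16% of all tested genes passed. These were 277 genes, and 3068 genes passed without that library. The mesophyll list did not overlap between the lines in these treatments either. It was at 4.68 to 4.93 in Y7-1 and 5.07 to 5.25 in Y478 under control-exogenous ABA. Under moderate drought it was at 4.55 to 4.67 in Y7-1 and 4.78 to 4.90 in Y478. Marker lists thus also separated groups in which *ASR3* lay at like levels.

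Interaction contrasts compare 2 log2 fold changes. In Y7-1, the ABA response of *ASR3* under moderate drought exceeded that under control by 3.00 ± 0.59 (SE), and by 2.89 without the library that went against its label. This difference holds the *ASR3* values known when the gene was chosen and is given with no test. Of all tested genes 0.417% passed this contrast.

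*ASR3* passed none of the contrasts between the lines' responses. Those that hold its values in droughted, sprayed Y7-1 plants hold values known when it was chosen, and are given with no adjusted p. The ABA response under moderate drought minus that under control was -0.26 ± 0.59 in Y478 (SE, adjusted p = 1). The line difference in this quantity, Y7-1 minus Y478, was 3.26 ± 0.84 (SE), or 3.15 without the library that went against its label. No gene passed this last limma contrast, by limma-voom either, with 1063 genes at an unadjusted p under 0.05. The drought response in Y7-1 minus that in Y478 was -1.56 ± 0.59 without ABA (SE, adjusted p = 0.4996, and -1.45 without that library). With ABA it was 1.70 ± 0.59 (SE). Of all tested genes, 0.00834% and 0.0292% passed these contrasts without and with ABA. The ABA response in Y7-1 minus that in Y478 was -1.48 ± 0.59 under control (SE, adjusted p = 0.980). Under moderate drought it was 1.78 ± 0.59 (SE), or 1.67 without that library. None of the tested genes passed either in limma or in limma-voom, with 1205 and 2450 at an unadjusted p under 0.05 under control and under moderate drought.

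*ASR8* was read in Y7-1 only, and far below the level of *ASR3*. The gene lies on chromosome 3 from 65868063 to 65868371 on the plus strand, is 309 bases long, and is described as abscisic stress-ripening protein 1. One read of it was worth 0.163 to 0.238 FPKM, so its values rest on few reads. It passed the low-value filter through 5 Y7-1 libraries of at least 0.5 FPKM, of which 3 were the plants under moderate drought-exogenous ABA, 1 was under moderate drought and 1 under control. Without the plants under moderate drought-exogenous ABA it would not have been tested, so a higher level in that group and in Y7-1 was built into its being tested.

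Under moderate drought-exogenous ABA the 3 Y7-1 plants had 17, 21 and 8 reads of *ASR8*, or 2.76, 3.70 and 1.34 FPKM. Under moderate drought, Y7-1 had 0, 9 and 0 reads, the last in the library that went against its label. Under control-exogenous ABA all 3 Y7-1 plants had 0 reads, and under control they had 3, 3 and 2. All sprayed, droughted plants of Y7-1 were read, and no sprayed, well watered one was. The 12 Y478 libraries had 0 reads in all, which over the 12 allows up to 0.0470 FPKM at a floor of 3 reads and up to 0.0577 FPKM at the exact 95% limit, for counting error only.

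Sums over plants gave the sizes of these differences, with exact 95% intervals that cover counting error only and not the spread between plants. *ASR8* was at least 12.7-fold higher in Y7-1 plants under moderate drought-exogenous ABA, with 46 reads, than under control-exogenous ABA, with 0 reads and a floor of 3 reads over the group. It was 5.17-fold as high (2.50 to 12.01) under moderate drought-exogenous ABA, with 46 reads, as under moderate drought, with 9 reads. Without the library that went against its label this ratio was 3.42 (1.66 to 7.96). All 9 reads of Y7-1 under moderate drought came from 1 plant.

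In well watered Y7-1, *ASR8* was at least 2.22-fold lower under control-exogenous ABA, with 0 reads, than under control, with 8 reads. Moderate drought and control without ABA, at 9 and 8 reads in Y7-1, had a ratio of 1.11 (0.379 to 3.30), or 1.67 (0.573 to 4.98) without the library that went against its label. Between the lines, *ASR8* was at least 13.6-fold higher in Y7-1 than in Y478 under moderate drought-exogenous ABA, at least 2.94-fold under moderate drought (at least 4.43-fold without that library) and at least 2.35-fold under control. Over all libraries the 63 reads of Y7-1 against 0 of Y478 gave at least 19.7-fold, or at least 21.6-fold without that library. Under control-exogenous ABA neither line had a read, and no ratio was formed.

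Because of the filter, limma p-values of *ASR8* are given only for Y7-1 comparisons without the plants under moderate drought-exogenous ABA. *ASR8* did not pass there for control-exogenous ABA over control (adjusted p = 0.340) or for moderate drought over control (adjusted p = 0.778). Fitted log2 fold changes of so low a gene depend on the pseudocount.

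*ASR8* heads a row of 3 ASR genes on chromosome 3 that spans 21453 bases. *ASR7* (Zm00001d040786) begins 3088 bases after it and is 321 bases long. *ASR9* (Zm00001d040787) follows 17426 bases further on, at 65889207 to 65889515, with the same 309 bases and the same description as *ASR8*. The sequences of the 2 were not compared, and how reads shared between genes, if any, were counted is not given in the sources used here.

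The 3 neighbours were alike in being read mainly in Y7-1. *ASR9* had 145 reads in Y7-1 and 0 in Y478, and *ASR7* had 53 reads in Y7-1 and 11 in Y478. Under moderate drought-exogenous ABA, *ASR9* had 16, 33 and 4 reads and *ASR7* had 11, 19 and 3 reads in Y7-1, in the same plant order as *ASR8* at 17, 21 and 8. Replicate 2 of Y7-1 under moderate drought differed from this, with 66 reads of *ASR9* beside 9 of *ASR8* and 10 of *ASR7*. The library that went against its label had 0 reads of all 3 genes. Of the 9 tested genes within 500000 bases of *ASR8*, 2 passed as higher and 1 as lower in Y7-1 than in Y478 under moderate drought-exogenous ABA, where 13.8% and 14.3% of all tested genes passed as higher and as lower. The 2 were *ASR7* and *ASR9*. Since *ASR9* had its 8 libraries of at least 0.5 FPKM all in Y7-1, its difference from Y478 was built into its being tested. *ASR7* had 6 such libraries, 4 in Y7-1 and 2 in Y478, and its call rests on few reads.

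**Figure D3:**
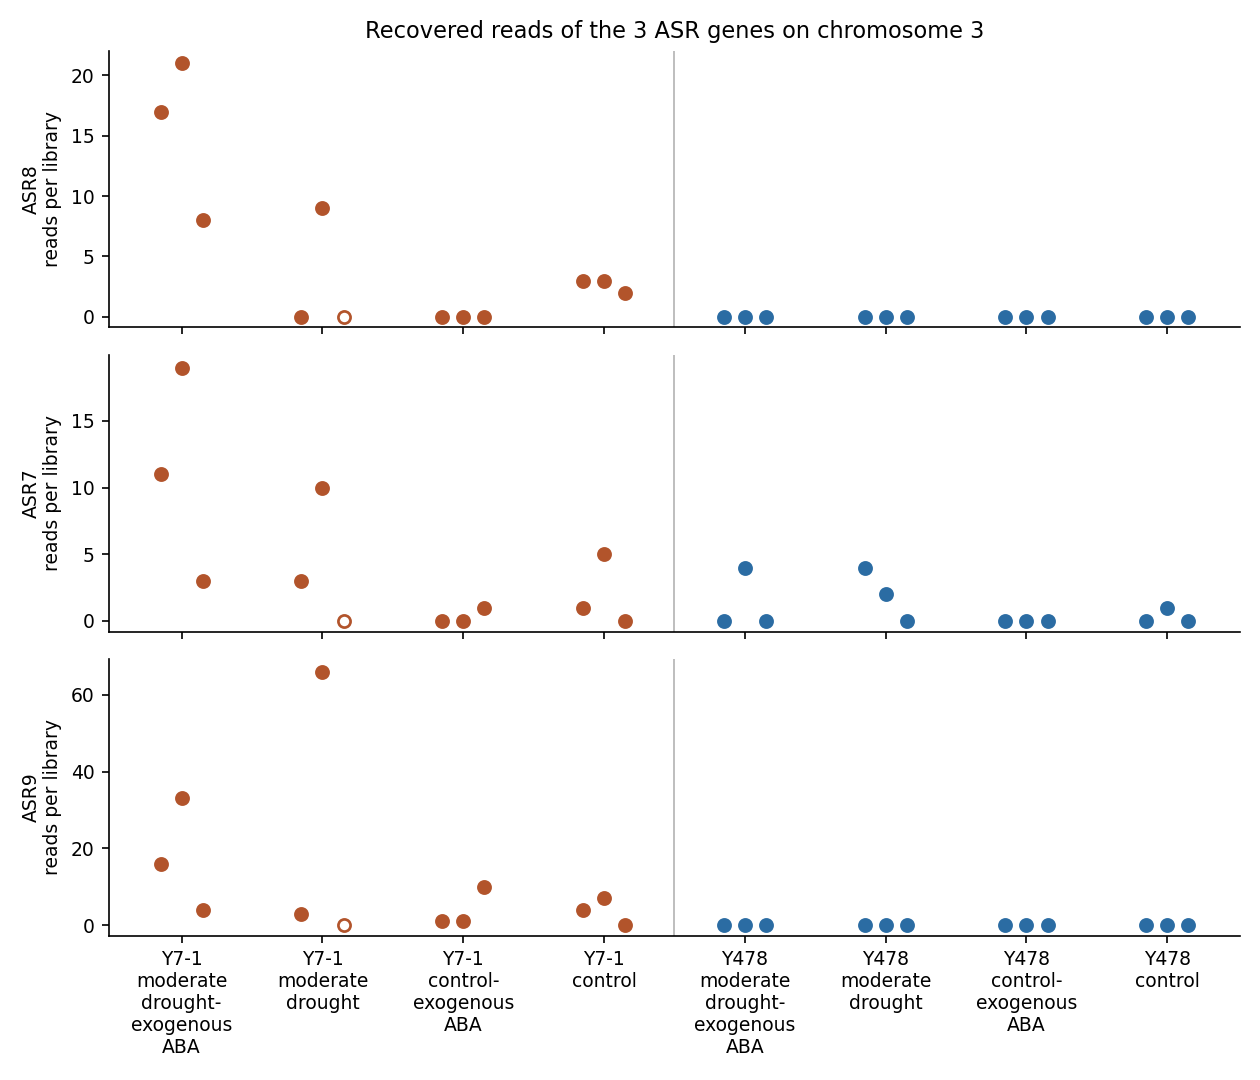
Recovered reads per library of ASR8, ASR7 and ASR9 (linear axes), the 3 ASR genes on chromosome 3, with Y7-1 groups on the left in orange and Y478 groups on the right in blue. Each point is 1 plant and the open point is replicate 3 of Y7-1 moderate drought, whose library went against its label. All 12 Y478 libraries are at 0 for ASR8 and ASR9, and the highest ASR8 library, in Y7-1 plants under moderate drought-exogenous ABA, has 21 reads.

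Set against its family, *ASR3* was second to *ASR1* (Zm00001d023529), the most abundant ASR gene of these leaves, which averaged 1874 FPKM over the 24 libraries against 783 FPKM for *ASR3*. FPKM is scaled by gene length, so levels of different genes can be compared. The ratio of *ASR3* to *ASR1* was 0.837 ± 0.165 in Y7-1 plants under moderate drought-exogenous ABA and 0.275 ± 0.0932 in Y7-1 under moderate drought (SD, n = 3 each). In Y478 it was 0.315 ± 0.181 under moderate drought-exogenous ABA and 0.289 ± 0.0695 under moderate drought. Without the library that went against its label, the ratio in Y7-1 under moderate drought was 0.326. *ASR3* made up 39.9% ± 3.79 of the summed FPKM of the 9 genes in Y7-1 plants under moderate drought-exogenous ABA, and 19.9% to 29.2% on average in the other 7 groups.

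*ASR1* and *ASR2* (Zm00001d004843) were the relatives that passed with *ASR3* in the Y478 drought comparisons. In Y478, *ASR1* rose to 2761 ± 574 FPKM under moderate drought, against 704 ± 220 FPKM under control (log2 fold change 2.00 ± 0.36 SE, adjusted p = 0.00414). In Y7-1, *ASR1* was at 2883 ± 390 FPKM under moderate drought-exogenous ABA and at 3171 ± 787 FPKM under moderate drought, a log2 fold change of -0.12 ± 0.36 (SE, adjusted p = 0.913). Without the library that went against its label it was 0.08 ± 0.39 (SE, adjusted p = 0.984), which turns the sign. For the same groups *ASR2* had 221, 579 and 1140 FPKM with ABA and 140, 202 and 168 FPKM without it. Its log2 fold change of 1.64 ± 0.47 did not pass (SE, adjusted p = 0.137, and 0.295 without that library). By contrast, the paper's own processing lists *ASR2* as higher with ABA in droughted Y7-1.

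Among the other 7 family genes, *ASR1* and *ASR2* passed as higher under drought in Y478 with and without the spray, where 5.84% and 3.34% of all tested genes passed as higher. *ASR1*, *ASR2* and *ASR7* passed as higher in Y7-1 plants under moderate drought-exogenous ABA than under control-exogenous ABA, where 6.56% of all tested genes did. For Y7-1 over Y478, *ASR1* passed under control, where 5.63% of all tested genes passed as higher, and *ASR7* and *ASR9* passed under moderate drought-exogenous ABA, all higher in Y7-1, with the limits on *ASR7* and *ASR9* given above. With all libraries kept, none of the 7 passed as lower in any of the 12 comparisons. For moderate drought-exogenous ABA over control-exogenous ABA in Y7-1, the median log2 fold change of the 7 was 1.35, beside 0.01 over all tested genes.

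*ASR5* (Zm00001d025401) had its lower mean in the line where *ASR8* was read, at 1.66, 0.970 and 0.858 FPKM in Y7-1 and 34.4, 33.8 and 17.1 FPKM in Y478 under moderate drought-exogenous ABA. This difference did not pass (adjusted p = 0.0580). The paper's own processing lists *ASR5* as lower with ABA in droughted Y7-1, a comparison in which it did not pass here. It was not kept in every Y7-1 library, since control replicate 2 had 96.6 FPKM, control-exogenous ABA replicate 3 had 108 FPKM and the library that went against its label had 70.2 FPKM. *ASR6* (Zm00001d016760) stayed below 4 FPKM in every library. Zm00001d035409, described as abscisic stress-ripening protein 2, did not pass in any of the 12 comparisons, with group means of 40.1 to 168 FPKM.

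**Figure D4:**
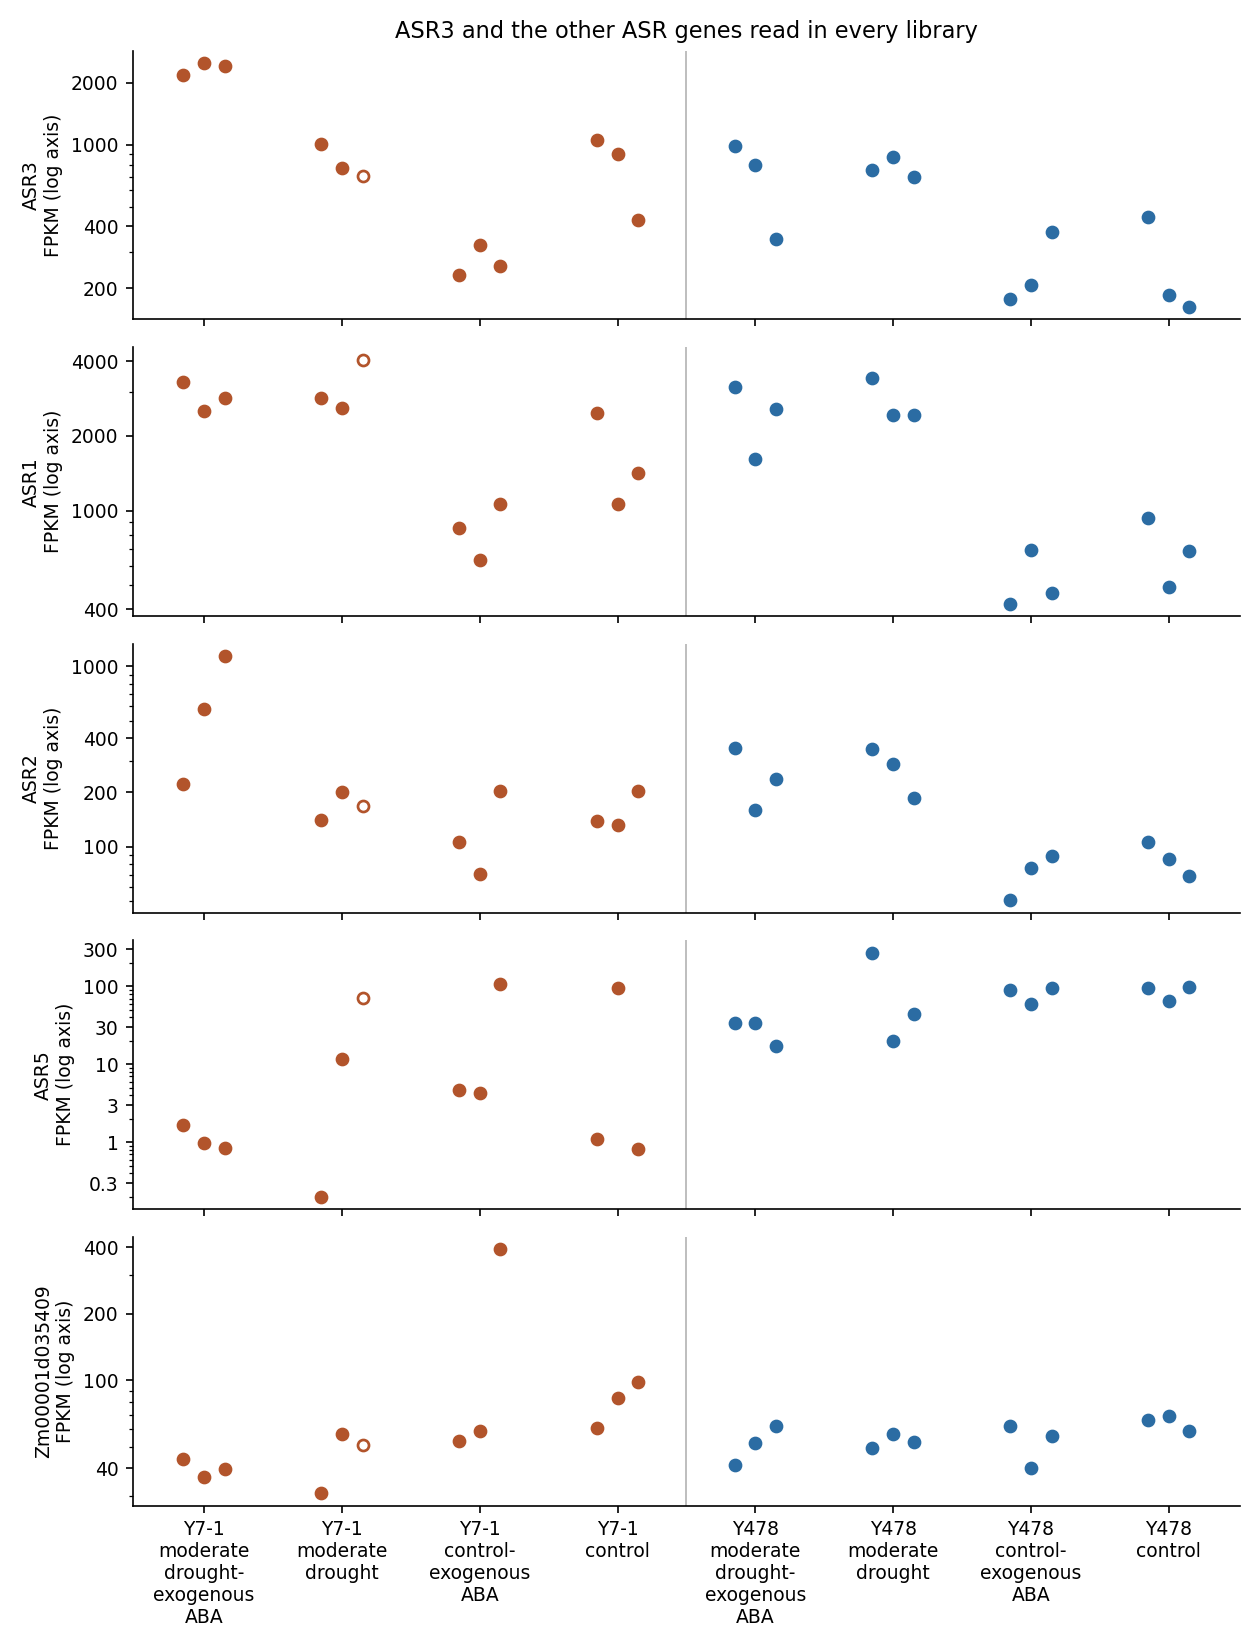
FPKM on log axes of ASR3 and of ASR1, ASR2, ASR5 and Zm00001d035409, with Y7-1 groups on the left in orange and Y478 groups on the right in blue. Each point is 1 plant and the open point is replicate 3 of Y7-1 moderate drought, whose library went against its label. In Y7-1 plants under moderate drought-exogenous ABA, ASR3 lies at 2194 to 2503 FPKM and ASR1 at 2514 to 3292 FPKM, while ASR5 lies at 0.858 to 1.66 FPKM.

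*ASR3* was set beside lists of genes matched by ABA-related words in their name or description. Whether each matched gene acts with ABA was not checked. Of 45 tested genes for dehydrins and other protective proteins, 10 passed as higher and 1 as lower in Y478 under moderate drought than under control, with a median log2 fold change of 0.30 beside 0 over all tested genes. Of 114 tested genes of the signaling list, 13 passed as higher and 4 as lower, with a median of 0.17. This list held genes described as ABA receptors, kinases, ABA-insensitive factors and protein phosphatases. Of 7 tested ABA synthesis genes, 1 passed as higher and none as lower, with a median of -0.56. In the same comparison 3.34% of all tested genes passed as higher and 2.64% as lower.

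With the spray, protective genes passed as higher under drought in both lines and none passed as lower. For moderate drought-exogenous ABA over control-exogenous ABA in Y7-1, 12 of the 45 passed as higher and none as lower (median 0.62), beside 6.56% and 5.19% of all tested genes. Of the 114 signaling genes 16 passed as higher and 5 as lower (median 0.02), and of the 7 synthesis genes 1 passed as higher. In Y478 the counts were 14 and 0 for the protective genes (median 0.82), 15 and 4 for the signaling genes (median 0.11) and 1 and 0 for the synthesis genes (median -0.31), beside 5.84% and 3.82%. For moderate drought over control in Y7-1, 1 protective and 1 signaling gene passed as higher and none of the 3 lists had a gene that passed as lower, beside 0.288% and 0.425% of all tested genes. These counts include the library that went against its label. With it 171 of all tested genes passed here, and without it 20. List counts without it are not given. No gene of the 3 lists passed in any of the 4 ABA comparisons, in which very few genes passed at all. Of all tested genes, 0.0375% passed in well watered and 0.163% in droughted Y7-1, and 0.00417% in each of the Y478 comparisons. The absence of calls thus says nothing particular of the lists.

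Between the lines, more protective and signaling genes passed as lower than as higher in Y7-1 in both sprayed treatments. Under moderate drought-exogenous ABA, where *ASR3* was higher in Y7-1, 1 of the 45 protective genes passed as higher and 14 as lower in Y7-1 (median -0.46), and 9 signaling genes passed as higher and 24 as lower (median -0.20), beside 13.8% and 14.3% of all tested genes. The synthesis genes had 1 higher and 0 lower. Under control-exogenous ABA, 1 protective gene was higher and 11 lower in Y7-1 (median -0.31), 7 signaling genes were higher and 20 lower (median -0.13), and 1 synthesis gene was lower, beside 10.5% and 11.5%. Under control the counts were 3 and 3 for the protective genes, 8 and 7 for the signaling genes and 0 and 1 for the synthesis genes, beside 5.63% and 6.57%. Under moderate drought 4 protective genes and 1 signaling gene passed as lower in Y7-1 and none as higher, beside 0.413% higher and 0.742% lower. These counts include the library that went against its label. With it 277 of all tested genes passed here, and without it 3068. List counts without it are not given, so the small counts under moderate drought are not to be set against those of the other treatments.

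The ABA response of *ASR3* in well watered Y7-1 was set beside that of 2 named genes of these lists. *Viviparous14* (Zm00001d033222), which encodes an enzyme that makes the ABA precursor, was at 1.26 ± 0.705 FPKM under control-exogenous ABA and 4.80 ± 2.38 FPKM under control in Y7-1. *Dehydrin1* (Zm00001d037894), a protectant of drying cells, was at 1.88 ± 1.42 FPKM under control-exogenous ABA and 33.0 ± 16.2 FPKM under control (SD, n = 3 each). For moderate drought-exogenous ABA over control-exogenous ABA in Y7-1, *dehydrin1* had the highest log2 fold change of all tested genes, 8.29 ± 0.76 (SE, adjusted p = 1.53e-05). *ASR3* was at 271 ± 48.5 FPKM under control-exogenous ABA and 795 ± 326 FPKM under control in the same plants. All 3 genes thus had their lower mean in sprayed, well watered Y7-1 plants, but none of them passed for control-exogenous ABA over control (adjusted p = 0.213 for *viviparous14*, 0.0662 for *dehydrin1* and 0.164 for *ASR3*). The 2 list genes were picked from more that were named, so their likeness to *ASR3* says nothing of the lists. For this comparison the median log2 fold change was -0.37 for the protective, -0.27 for the synthesis and 0.015 for the signaling genes. Over all tested genes it was -0.01.

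The pattern of *ASR3* over the 24 libraries was most like that of Zm00001d037239, a glycine-rich protein gene, with a Pearson correlation of 0.896 on log2 values among 16876 genes compared. It was followed by Zm00001d017852 (0.893), Zm00001d025132 with an OB-fold (0.874), Zm00001d014278 for a Ras-related RABA4a protein (0.873) and Zm00001d021574 for a LAZ1 protein (0.851). Zm00001d037239 had 273 ± 42.7 FPKM in Y7-1 plants under moderate drought-exogenous ABA and 162 ± 25.7 FPKM in Y7-1 under moderate drought (SD, n = 3 each). Within the family, *ASR3* correlated with *ASR1* at 0.783, *ASR2* at 0.777, *ASR8* at 0.698 and *ASR5* at -0.52. These 24 points share the groups and the libraries, and the values are a description.

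The pattern of *ASR8* was most like that of Zm00001d026344, described as related to myosin heavy chain (0.876), and of Zm00001d039424, an AP2-EREBP transcription factor gene (0.869). Zm00001d028909 (0.838), Zm00001d007316 (0.830) and Zm00001d026588 (0.816) came next. Zm00001d039424 had 6.11 ± 1.95 FPKM in Y7-1 plants under moderate drought-exogenous ABA and 0.230 ± 0.246 FPKM in Y478 under the same treatment (SD, n = 3 each). Its neighbours *ASR7* (0.813) and *ASR9* (0.802) correlated with *ASR8* less closely than the first of these. Most of the points of *ASR8* are at 0, so these correlations rest on the 7 libraries in which it was read. Within the 12 Y7-1 libraries *ASR3* and *ASR8* correlated at 0.802, and at 0.826 without the library that went against its label.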

How the data were processed

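Leaf RNA of 24 plants was measured, and lines, treatments and replicates were taken from the labels. The authors deposited FPKM values of 46430 genes with positions, lengths, names and descriptions. Libraries were made with a NEBNext Ultra RNA kit and sequenced on an Illumina NovaSeq, and the submitters' processing notes name HISAT2 2.0.5. The read counter, strand setting and annotation release are not given in the sources used here, and the labels' build, kit and extraction text belong to another organism, so positions are given as in the deposited file. All FPKM values were whole multiples of 1 read within 0.05 (100%), which gave recovered reads and an effective library size of 13616081 to 19901729. No replicate pair was 1 library deposited again, since chi-square over degrees of freedom ranged over 15.85 to 192.93 in the 24 pairs.

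Genes with at least 0.5 FPKM in at least 3 libraries (23978) were tested as log2(FPKM + 0.5) with limma 3.58.1 in R 4.3.3, with 8 group means in 1 fit, eBayes with a trend, two-sided tests and Benjamini-Hochberg adjustment over all tested genes. Fold changes on this scale understate those of low genes. For *ASR7*, *ASR8* and *ASR9*, summed reads were compared with exact intervals and a floor of 3 reads over the group. The code was tested on simulated data. Tables and figures were made in Python 3.11.15 with numpy 2.4.6, pandas 2.3.3, scipy 1.17.1 and matplotlib 3.10.9.

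The members and gene lists were chosen with earlier results of these data known. Named genes were both members, the other ASR genes, the 5 genes most like each member with a mean of at least 1 FPKM, the list genes with the largest change in Y478 under moderate drought (of which 2 are printed) and the *ZmPMP3g* homolog. The words "nced" and "pyl" were matched only at the start of a word, which was decided on seeing the matched descriptions. The alternatives were other pseudocounts, no filter, only the compared groups, array weights, limma-voom on recovered reads, median-ratio scaling, robust moderation, a replicate block and each library left out.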

Additional observations from a re-analysis of the deposited data

Results flagged for a closer look

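In Y7-1 the fitted log2 ABA response under moderate drought exceeded that under control by 3.00 for *ASR3* and by 2.81 for *ASR8*. Both were flagged by an adjusted p under 0.05 in limma, which the choice of *ASR3* and the low-value filter of *ASR8* favoured. These differences are given with no test, since the first holds values on which *ASR3* was chosen and the second is a fitted value of a gene that was tested only through the droughted, sprayed Y7-1 plants. *ASR3* was higher in all 3 droughted Y7-1 plants with ABA than in any of the 3 without it. In well watered Y7-1 it was lower in all 3 plants with ABA than in any of the 3 without it. Plants with and without ABA were different individuals. How many of all genes separate in this way was not counted, so the separation of *ASR3* is a description only. The *ASR8* value includes a group with 0 reads and depends on the pseudocount. Y478 had -0.26 for *ASR3*. The difference between the lines was 3.26, in a limma contrast that no gene passed.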

How the results depend on the processing

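Of 31 results, 13 kept their direction and side of the threshold under every alternative, and 18 changed under at least 1. Among those that kept it were the calls of *ASR3* for moderate drought-exogenous ABA over control-exogenous ABA in Y7-1 and for Y7-1 over Y478 under moderate drought-exogenous ABA. Both calls rest on the droughted, sprayed Y7-1 plants, whose *ASR3* values were among those known when the gene was chosen. That they were kept is a description and no independent support. Precision was limited by 3 plants a group and, for *ASR8*, by 63 reads. Values of *ASR8* and the difference of ABA responses of *ASR3* in Y7-1 are descriptions, whose side of the threshold supports nothing. All values below are log2 fold changes or differences of them, and where no cause is named the cause was not tested.

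With only the compared groups fitted, which leaves fewer samples to estimate the spread, 6 calls were lost. For *ASR3* these were Y478 moderate drought over control (1.70), Y478 moderate drought-exogenous ABA over control-exogenous ABA (1.44), Y7-1 over Y478 under control (1.64) and the ABA response under moderate drought minus control in Y7-1 (3.00). For *ASR8* they were Y7-1 moderate drought-exogenous ABA over moderate drought (1.89) and the same difference of ABA responses (2.81). Without the low-value filter, *ASR3* lost the second of the Y478 calls at 1.44 (adjusted p = 0.0561), with more genes tested. In limma-voom *ASR3* lost the difference of ABA responses in Y7-1, at 3.00. The *ASR8* call for moderate drought-exogenous ABA over moderate drought was lost at a pseudocount of 0.1 (3.31), in limma-voom (3.48) and under median-ratio scaling (1.87).

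For Y7-1 over Y478 under control, *ASR8* passed at a pseudocount of 0.1 (2.45), with only the compared groups (0.92) and with array weights (0.90). Array weights turned the sign of 3 small values: *ASR3* in Y478 control-exogenous ABA over control (-0.27), *ASR3* for the difference of ABA responses in Y478 (0.10) and *ASR8* in Y7-1 moderate drought over control (0.016). Calls summed over the 12 comparisons were 73 with only the compared groups, 314 with array weights and 134 in the fit reported for ABA signaling. In the same order they were 45, 142 and 75 for protective proteins and 4, 19 and 10 for the other ASR genes. ABA synthesis had 20 with array weights and 6 in the fit reported.

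With 1 library left out in turn, *ASR3* ranged over 1.43 to 2.15 for Y478 moderate drought over control and 1.13 to 1.89 for Y478 moderate drought-exogenous ABA over control-exogenous ABA. It ranged over 1.37 to 2.09 for Y7-1 over Y478 under control and 2.75 to 3.39 for the difference of ABA responses in Y7-1. Values near 0 changed sign for *ASR3* in Y478 control-exogenous ABA over control (-0.31 to 0.47), Y478 moderate drought-exogenous ABA over moderate drought (-0.55 to 0.20) and Y7-1 moderate drought over control (-0.25 to 0.39). The same held for Y7-1 over Y478 under control-exogenous ABA (-0.054 to 0.48) and under moderate drought (-0.069 to 0.19), and for the difference of ABA responses in Y478 (-0.71 to 0.19). *ASR8* ranged over 1.55 to 2.55 for Y7-1 moderate drought-exogenous ABA over moderate drought and -0.92 to 0.076 for Y7-1 moderate drought over control. It ranged over 0.88 to 1.00 for Y7-1 over Y478 under control and 2.48 to 3.47 for the difference of ABA responses in Y7-1. The calls of the other ASR genes summed to 6 to 12. Without the Y7-1 moderate drought library that went against its label, 3068 genes passed for Y7-1 over Y478 under moderate drought, against 277 with it.

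The replicate block changed no call of *ASR3* or *ASR8*. With it, *ASR3* was at 3.14 for moderate drought-exogenous ABA over control-exogenous ABA in Y7-1. For Y7-1 moderate drought-exogenous ABA over moderate drought, 63 genes passed with the block and 39 without it. The plants share only a number, since deviations of same-numbered plants correlated at -0.238 to 0.318, over 0.1 in 12 of 84 pairs, and 10 of 24 libraries correlated best with their own number.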

Other observations

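Genes near *ASR3* were counted on the same chromosome. Of the 6 tested genes within 500000 bases of *ASR3*, none passed in limma for moderate drought-exogenous ABA over control-exogenous ABA in Y7-1. Of the 28 tested genes within 2000000 bases, 6 passed as higher and none as lower in that comparison, in which 6.56% of all tested genes passed as higher. For Y7-1 over Y478 under moderate drought-exogenous ABA, 4 of the 28 passed as higher and 2 as lower, beside 13.8% and 14.3% of all tested genes.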
